A study of Mus musculus with 21 samples.

Results

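Interleukin-17-producing CD4 T cells (Th17 cells) can be raised from naive cells in culture with different cytokine mixtures, and 2 such mixtures were compared here, TGFb+IL-6 and the combination IL-1b+IL-6+IL-23. The comparison used 5 of the 21 libraries of the series, 3 of IL-1b+IL-6+IL-23 and 2 of TGFb+IL-6, and the 8645 of 23415 genes that had at least 1 TPM in at least 2 of the 5 libraries. TPM (transcripts per 1000000) is a transcript's share of a library after correction for transcript length. All 5 libraries came from naive CD4 T cells (CD44 low, CD25 negative) taken from lymph nodes and spleen. The mice were heterozygous reporter animals, Il23r wt/eGFP, in which the reporter allele gives no working IL-23 receptor, so each cell had at most the other allele to make it. The cells were activated for 5 days on plate-bound antibodies to CD3 and CD28, either with 20 ng/ml IL-1b, 25 ng/ml IL-6 and 20 ng/ml IL-23 or with 2 ng/ml human TGF-b and 25 ng/ml IL-6. They were then sorted as GFPneg, without reporter signal, and RNA was sequenced as full-length cDNA (SMART-Seq2). Both cultures therefore shared the reporter genotype, the activation, IL-6 and the GFPneg gate, and differed in IL-1b and IL-23 on the one side and TGF-b on the other. The comparison shows how the mixtures differ as a whole and not what each cytokine does. The labels do not say whether replicates came from separate cultures or mice, so p-values measure the spread between these samples only, which may be technical. The age and sex of the mice are not known from the labels.

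Naive CD4 T cells become different effector cells according to the cytokines around them during activation. IL-6 acts through STAT3 and is shared by most recipes for Th17 cells. With TGF-b it gives Th17 cells that are described as less harmful and that can make IL-10, whereas IL-1 and IL-23 are known to give Th17 cells that drive inflammation in gut and brain. The words pathogenic and non-pathogenic below are the names of published signatures of these 2 types, not a property measured here.

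The third TGFb+IL-6 GFPneg library was left out. It had 191 genes above 0, against 10384 to 11613 in the 5 libraries used, and it went against its label, with the Th1 cytokine gene Ifng at 3285 TPM while Ifng was listed at 0 in both other TGFb+IL-6 GFPneg libraries. The 5 libraries used correlated at 0.958 to 0.973 within IL-1b+IL-6+IL-23, at 0.975 within TGFb+IL-6 and at 0.914 to 0.931 between cultures. Ribosomal protein genes took 33.7, 39.5 and 38.0% of the TPM in IL-1b+IL-6+IL-23 replicates 1 to 3 and 44.1 and 44.4% in TGFb+IL-6 replicates 1 and 2. Because TPM values are shares, this difference moves with every comparison below, and its part in the results was not tested. The median log2 change of all genes was 0.25. Median-ratio scaling, which sets the typical gene equal between libraries, brought it to 0.0068. TPM keeps no sequencing depth, and how many reads lie behind a value is unknown. In bulk RNA, fewer cells with a transcript and less of it per cell cannot be told apart.

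The cells had the expression of CD4 T cells in both cultures. All 6 markers fixed for CD4 T cells were present, with Cd4 at 70.7 to 102 TPM in IL-1b+IL-6+IL-23 and 61.9 and 62.2 in TGFb+IL-6. Of the 6, Cd5 was called higher, at 437 to 649 against 347 and 278 TPM (limma adjusted p = 0.024, and 0.0595 to 0.286 with median-ratio scaling or without either TGFb+IL-6 library or IL-1b+IL-6+IL-23 replicate 3), and the adhesion receptor gene Cd2 was lower, at 268 to 292 against 1056 and 1107 TPM (adjusted p = 2.69e-05). Cd8a was at or near 0 while Cd8b1 was at 6.15 to 17.4 TPM. Of the other marker lists, 4 of 6 B cell genes (among them Cd79a, Ms4a1 and Pax5), 6 of 10 myeloid and dendritic genes (among them Lyz2, Csf1r and Itgax), 4 of 6 natural killer genes (among them Ncr1) and 4 of 4 markers of innate-like and gamma-delta T cells were listed at 0 in all 5 libraries. Of the members that were not, Cd74 was at 35.2 to 108 TPM, H2-Ab1 at 5.64 to 19.2 and Ighm at 4.95 to 8.05. Gzma, of the natural killer list, was at 1.18, 1.25 and 1.33 TPM in IL-1b+IL-6+IL-23 and listed at 0 in TGFb+IL-6. It was called higher. Klra4, Cd79b, Itgam and Cd14 were under 1 TPM in all 5 libraries. Igkc, the immunoglobulin kappa constant gene, was listed at 0 in the 3 IL-1b+IL-6+IL-23 libraries and was at 15.49 and 23.6 TPM in TGFb+IL-6 (limma adjusted p = 3.73e-05). It was singled out after its values were seen. Of 8 erythroid and neutrophil markers 6 were listed at 0 in all 5 libraries. Csf3r, of the same list, was at 6.73 to 9.24 TPM in IL-1b+IL-6+IL-23 and at 6.47 and 6.61 in TGFb+IL-6. The part of cells with any of these markers in the results below was not tested. Ly6g, a neutrophil surface gene, was lower in IL-1b+IL-6+IL-23, at 5.2 to 6.26 against 12.4 and 22.5 TPM (adjusted p = 0.0163, and 0.0506 and 0.207 without TGFb+IL-6 replicate 1 or 2), with S100a8, S100a9 and Mpo listed at 0 throughout.

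Il23r, the locus the cells were sorted by, was checked next. Il23r transcript was at 7.33, 6.02 and 7.56 TPM in IL-1b+IL-6+IL-23 and at 0.87 and 0.73 in TGFb+IL-6 (log2 change 2.14 ± 0.31, SE, adjusted p = 0.00166). The row EGFP_IRES_IL23R, a reporter sequence that may share reads with Il23r, was at 0, 1.53 and 1.74 against 0.75 and 0 TPM and did not pass (adjusted p = 0.507). Among the GFPpos libraries of the same mixture these rows were at 21.7 to 38.9 and 17.4 to 32.3 TPM, above the GFPneg libraries. TDTOMATO, a row that the table does not describe, was at 28.6, 26.1 and 24.7 against 52.6 and 48.8 TPM (adjusted p = 0.0164). Its call was lost without either TGFb+IL-6 library (adjusted p = 0.135 both times).

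Of the 8645 genes, 1190 (13.8%) differed at an adjusted p under 0.05 (limma on log2(TPM + 1), Benjamini-Hochberg), 781 (9.03%) higher and 409 (4.73%) lower in IL-1b+IL-6+IL-23. The shares of 9.03% and 4.73% are the background for the counts of list members below. The lists share members, among them Il22, Ccl5, Maf and Il10, so their counts are not separate results. The pathogenic and Th17 lists also hold Il23r, the locus the cells were sorted by. The plot of mean levels shows both groups of genes, and that most genes lie near the diagonal. A change of at least 1 on the log2 scale was seen in 910 (10.5%) of the genes and the call, 574 higher and 336 lower. The values of the cultures did not overlap in 4009 genes (46.4%), which included all 1190. The balance of calls depended on scaling: 65.6% of calls were higher with TPM as deposited, 42.0% with median-ratio scaling (434 genes or 5.02% higher, 599 or 6.93% lower) and 46.5% with quantile normalization (519 or 6% higher, 598 or 6.92% lower). Of the 1190 calls, 841 were made in the same direction with median-ratio scaling and 912 with quantile normalization. An exact permutation test of 3 against 2 libraries cannot give a two-sided p below 0.1 for a single gene, so the calls rest on the spread that limma shares across genes. Leaving out TGFb+IL-6 replicate 1 or 2 gave 260 and 230 calls, with the remaining sample of that arm assumed to vary like the others.

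**Figure D1:**
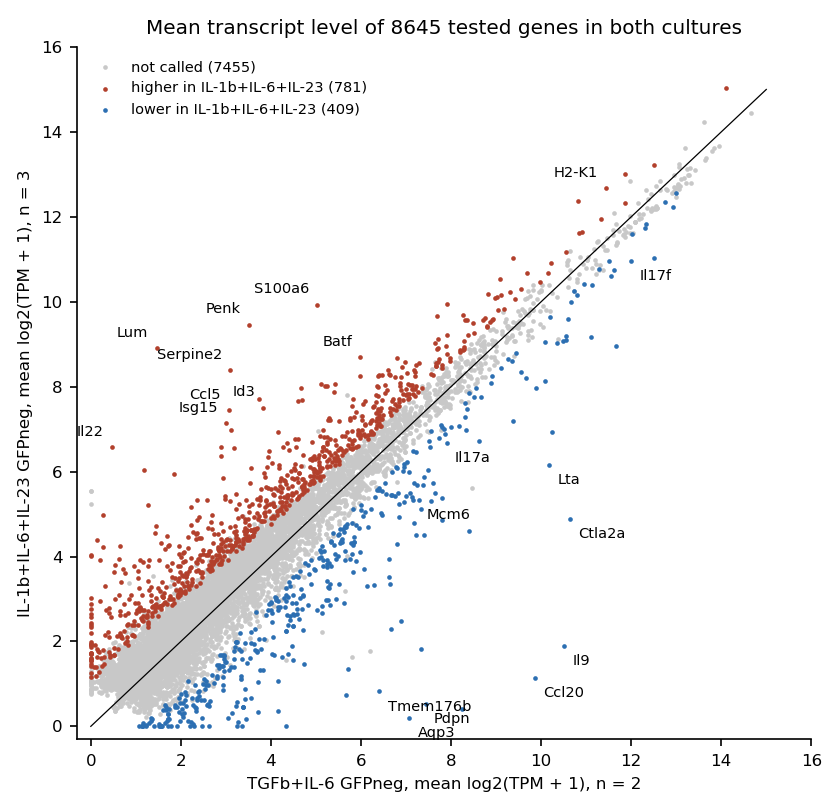
Mean log2(TPM + 1) of each tested gene in TGFb+IL-6 GFPneg (x axis, 2 libraries) and IL-1b+IL-6+IL-23 GFPneg (y axis, 3 libraries), with the diagonal of equal levels. Red points are the 781 genes called higher and blue points the 409 called lower in IL-1b+IL-6+IL-23; Lum, Il22 and Penk lie far above the line, and Ccl20, Il9 and Ctla2a far below it.

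The cytokine genes split between the cultures. The median log2 change of 18 tested genes for secreted cytokines was -0.34, against 0.25 for all genes. It was -0.32 without Il10, listed at 0 in IL-1b+IL-6+IL-23. Of the 18, 4 were higher in IL-1b+IL-6+IL-23 (22.2%, against 9.03% of all genes), namely Il22, Il24, Il2 and Il3. Lower were 8 (44.4% against 4.73%), namely Il9, Il10, Il16, Il17a, Il17f, Il21, Lta and Ltb. Of these, 2 stayed higher without TGFb+IL-6 replicate 1 or 2, and 2 and 3 stayed lower. Il22, whose product acts on epithelial cells of gut and skin, lies on the plus strand of chromosome 10 (chr10:118204942-118210047, GRCm38, protein-coding). Il22 was at 110, 96.3 and 80.3 TPM in IL-1b+IL-6+IL-23 and at 0 and 0.94 in TGFb+IL-6. It was nearly restricted to the former, and rose by 6.10 ± 0.32 on the log2 scale (adjusted p = 3.99e-06). Its near copy Iltifb, which may share its reads, was at 1.15, 5.52 and 1.46 TPM and listed at 0 in TGFb+IL-6 (adjusted p = 0.0414, and 0.0573 to 0.285 without either TGFb+IL-6 library or IL-1b+IL-6+IL-23 replicate 2).

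Il24, an IL-10 family cytokine gene, was at 83.8, 117 and 87.6 TPM in IL-1b+IL-6+IL-23 and at 18.7 and 26.8 in TGFb+IL-6. Every value of the first culture exceeded those of the second (2.04 ± 0.24, adjusted p = 0.00053). Il2, the T cell growth factor gene, was at 712, 373 and 789 against 287 and 199 TPM. The groups did not overlap, but the first 3 libraries spread widely (1.31 ± 0.30, adjusted p = 0.0183), and the call was lost without either TGFb+IL-6 library (adjusted p = 0.119 and 0.295). Il3, a growth factor gene of blood cell precursors, was at 6.17, 2.61 and 2.32 against 0.57 and 0 TPM (1.82 ± 0.42, adjusted p = 0.0191, and 0.102 and 0.243 without TGFb+IL-6 replicate 1 or 2).

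The genes of IL-17 itself were higher in TGFb+IL-6 among these GFPneg cells. Il17a (chr1:20730905-20734496, plus strand) was at 81.6, 89.8 and 142 TPM in IL-1b+IL-6+IL-23 and at 219 and 260 in TGFb+IL-6. The groups did not overlap, and Il17a fell by 1.23 ± 0.24 (adjusted p = 0.00908). Its neighbour Il17f (chr1:20777146-20790617, minus strand) was at 1775, 2233 and 1988 against 4744 and 3552 TPM, and fell by 1.04 ± 0.16 (adjusted p = 0.00231). Both calls depended on the TGFb+IL-6 libraries: Il17a lost it without either (adjusted p = 0.104 and 0.189) and Il17f without replicate 1 (adjusted p = 0.0792). Under the same mixture, GFPpos cells had the 2 genes at 615 to 1199 and 6082 to 9681 TPM.

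Il9, whose product supports mast cells and which stands in the non-pathogenic signature, was among the transcripts with the largest differences. Il9 (chr13:56479277-56482246, minus strand) was at 0, 1.25 and 21.9 TPM in IL-1b+IL-6+IL-23 and at 1239.8 and 1723 in TGFb+IL-6. The library with 21.9 TPM stood apart from the other 2 but far below TGFb+IL-6 (-8.62 ± 1.00, adjusted p = 0.000525), and without TGFb+IL-6 replicate 1 or 2 the adjusted p was 0.0539 and 0.0622. Lta, the gene of lymphotoxin alpha, was at 66.9, 58.3 and 88.8 against 1153 and 1159 TPM. The 2 TGFb+IL-6 libraries were nearly equal and far above the rest, a fall of 4.02 ± 0.20 (adjusted p = 2.79e-06). Ltb, encoding its partner lymphotoxin beta, was at 18.8, 26 and 21.3 against 176 and 123 TPM (-2.70 ± 0.24, adjusted p = 8.44e-05).

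Il21, a cytokine gene of follicular helper and Th17 cells, was lower at 33.5, 24.6 and 43.9 against 68.1 and 58.1 TPM (-0.91 ± 0.26, adjusted p = 0.0453). That call held in 1 of the 5 fits with a library left out. Il10, the gene of the anti-inflammatory cytokine, was listed at 0 in all 3 IL-1b+IL-6+IL-23 libraries and was at 1.69 and 2.26 TPM in TGFb+IL-6 (adjusted p = 0.00879, and 0.0543 and 0.0861 without TGFb+IL-6 replicate 1 or 2). Csf2, the GM-CSF gene of the pathogenic signature, was listed at 0 in all 5 libraries and in the other 16 of the table. Ifng was listed at 0 in 4 of the 5 libraries and was at 0.9 TPM in IL-1b+IL-6+IL-23 replicate 3.

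**Figure D2:**
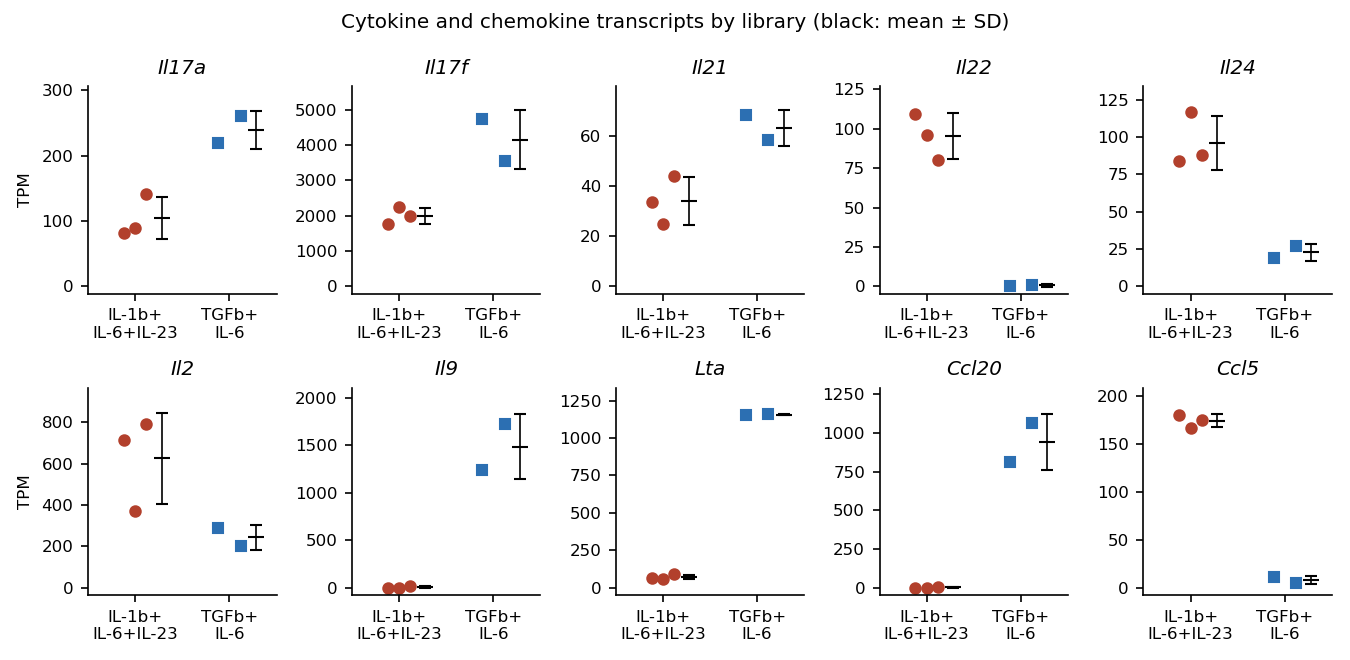
TPM of 10 cytokine and chemokine genes in each library of IL-1b+IL-6+IL-23 GFPneg (red circles, 3) and TGFb+IL-6 GFPneg (blue squares, 2), each panel with its own linear axis; black bars are the mean ± SD. Il22 and Ccl5 are near 0 in TGFb+IL-6, and Il9, Lta and Ccl20 are near 0 in IL-1b+IL-6+IL-23 on these axes, while Il17a and Il17f are present in both.

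Of 9 tested chemokine genes, Ccl5 and Ccl22 were higher (22.2%, against 9.03% of all genes) and Ccl20 and Ccl4 lower (22.2% against 4.73%). The list median was 0.014, or -0.26 with median-ratio scaling. Ccl20, whose product draws CCR6-bearing cells and is a Th17 marker, was at 0, 1.41 and 3.51 TPM in IL-1b+IL-6+IL-23 and at 813 and 1068 in TGFb+IL-6. This was the largest fall of all named genes (-8.72 ± 0.51, adjusted p = 9.02e-06). Ccl5, a T cell and macrophage attractant of the pathogenic signature, was at 180.4, 167 and 175 against 10.96 and 4.95 TPM (4.37 ± 0.28, adjusted p = 1.34e-05). Its 3 high values differed little among themselves. Ccl22 was at 3.97, 1.05 and 2.84 against 0 and 0.26 TPM (1.60 ± 0.41, adjusted p = 0.0317) and held only without IL-1b+IL-6+IL-23 replicate 2 (adjusted p = 0.0132, and 0.0592 to 0.216 without the others). Ccl4 was at 8.71, 15.6 and 21.4 against 48.9 and 36.9 TPM (-1.50 ± 0.34, adjusted p = 0.0179, and 0.204 and 0.16 without TGFb+IL-6 replicate 1 or 2). Ccl3 and Cxcl3 did not pass (adjusted p = 0.987 and 0.0985), and the CCL20 receptor gene Ccr6 was at 33.3, 29.2 and 49.9 against 30.3 and 24.6 TPM (adjusted p = 0.344).

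The 2 published signatures moved apart, although each holds genes that did not. Of 17 tested genes of the pathogenic Th17 signature 9 were higher in IL-1b+IL-6+IL-23 (52.9%, against 9.03% of all genes). They were Il22, Ccl5, Gzmb, Lag3, Il23r, Il3, Casp1, Stat4 and Icos. Ccl4 alone was lower (5.88% against 4.73%), and the median was 1.28. Leaving out TGFb+IL-6 replicate 1 or 2 left 6 and 5 higher, with Stat4, Icos and Il3 lost both times (adjusted p = 0.0573 to 0.243). Gzmb, a granule protease gene, was at 5.91, 6.95 and 7.48 against 0.31 and 0 TPM (2.76 ± 0.32, adjusted p = 0.000532), and Lag3, an inhibitory receptor gene, at 28.3, 34.2 and 29.2 against 6.62 and 4.41 (2.29 ± 0.26, adjusted p = 0.000457). All 5 tested genes of the non-pathogenic signature except Il1rn were lower (80%, against 4.73% of all genes). The list median was -1.87, or -2.30 without Il10, which was listed at 0 in a whole group. Maf, encoding a transcription factor that drives Il10, was at 0.24, 0.37 and 0.63 against 11.5 and 6.03 TPM (-2.74 ± 0.36, adjusted p = 0.00101). Ikzf3, which encodes the transcription factor Aiolos, was at 0 to 0.2 against 3.29 and 2.68 TPM (-1.87 ± 0.31, adjusted p = 0.0038, and 0.0585 without TGFb+IL-6 replicate 1). Il1rn, the IL-1 receptor antagonist gene, was at 7.11 to 7.84 TPM in all 5 libraries (adjusted p = 0.998). Only 1 and 2 of the 4 remained lower without TGFb+IL-6 replicate 1 or 2.

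The Th17 program as a list did not move one way. Of 16 tested genes 5 were higher (31.2%, against 9.03% of all genes), namely Il22, Il23r, Batf, Stat3 and Nfkbiz. Lower were 6 (37.5% against 4.73%), namely Ccl20, Maf, Irf4, Il17a, Il17f and Il21. The list median was 0.19, or -0.10 after median-ratio scaling. The counts without TGFb+IL-6 replicate 1 or 2 were 3 and 3 higher and 2 and 4 lower. Rora, a nuclear receptor gene of the Th17 program, was at 9.57 to 13.2 against 9.03 and 7.84 TPM (adjusted p = 0.48).

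Among 32 tested transcription factor genes of helper T cells 10 were higher (31.2%, against 9.03% of all genes) and 5 lower (15.6% against 4.73%). Median-ratio scaling left 6 higher (18.8% against 5.02%) and ended the calls of Id2, Junb, Bhlhe40 and Ikzf1. Fits without TGFb+IL-6 replicate 1 or 2 left 6 and 4 higher and 1 and 3 lower. Batf, a partner of IRF4 needed for Th17 cells, was at 478, 443 and 338 TPM in IL-1b+IL-6+IL-23 and at 59.2 and 65.5 in TGFb+IL-6. Every value of the first culture was far above those of the second (2.72 ± 0.19, adjusted p = 2.35e-05). Irf4, the gene of that partner, went the other way, at 13.7, 13.0 and 15.51 against 61.5 and 39.6 TPM (-1.74 ± 0.25, adjusted p = 0.00179), as did Irf8 at 3.58 to 5.6 against 19.9 and 19.7 (adjusted p = 0.00178). The adjusted p of these genes without TGFb+IL-6 replicate 1 was 0.0632 and 0.0604, and it was 0.0279 and 0.0622 without replicate 2. Zbtb32, encoding a repressor induced in activated lymphocytes, was at 297, 207 and 302 against 41.0 and 43.2 TPM (2.63 ± 0.21, adjusted p = 4.66e-05). Nr4a1, an early gene of T cell receptor signalling, was at 93.4 to 106 against 26.2 and 14.3 TPM (2.31 ± 0.26, adjusted p = 0.000404). Myc, Junb, Bhlhe40, Ikzf1 and Id2 were also higher, by 0.71 to 1.22, and each lost its call without at least 1 TGFb+IL-6 library (Myc adjusted p = 0.0585 and 0.102, Junb 0.212, Bhlhe40 0.0791 and 0.207, Ikzf1 0.285, Id2 0.0959). Gata3, the Th2 regulator, was at 7.95, 4.22 and 3.96 against 0.75 and 0.42 TPM (1.96 ± 0.37, adjusted p = 0.00719, and 0.082 and 0.134 without TGFb+IL-6 replicate 1 or 2). The Th1 regulator Tbx21 and the regulatory T cell factor Foxp3 did not pass (adjusted p = 0.158 and 0.165), at 0.36 to 3.38 against 0.16 and 0 and at 0.24 to 0.82 against 1.77 and 1.27 TPM. Ahr was under the level tested, as were its targets.

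Genes of cytokine signalling were next. STAT proteins carry signals from cytokine receptors to the nucleus, and SOCS proteins feed back on them. Of 18 tested JAK-STAT and feedback genes 6 were higher (33.3%, against 9.03% of all genes), namely Stat3, Stat4, Stat5a, Stat5b, Tyk2 and Pim2. Socs2 alone was lower (5.56% against 4.73%), and the median was 0.57. With median-ratio scaling 4 were higher (22.2% against 5.02%), without Stat3 and Tyk2. Stat5a, which transmits IL-2 signals, was at 319, 222 and 223 TPM in IL-1b+IL-6+IL-23 and at 27.9 and 21.6 in TGFb+IL-6. The groups were far apart (3.30 ± 0.22, adjusted p = 1.78e-05). Socs2, an inhibitor of STAT5 signalling, was at 10.2, 9.35 and 12.2 against 99.6 and 95.2 TPM (-3.09 ± 0.22, adjusted p = 2.75e-05). These opposite differences of Stat5a and Socs2 were called in every fit with a library left out. In the fits without TGFb+IL-6 replicate 1 or 2, 1 of the 6 higher calls remained each time, with adjusted p = 0.062 to 0.284 for Stat3, Stat4, Stat5b, Tyk2 and Pim2.

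Receptor genes were called in both directions, with 3 of 22 tested higher (13.6%, against 9.03% of all genes) and 3 lower (13.6% against 4.73%), and 7 lower with median-ratio scaling (31.8% against 6.93%). Il1r2, the decoy receptor that binds IL-1 without signalling, was at 106, 85.2 and 95.6 TPM in IL-1b+IL-6+IL-23 and at 5.89 and 6.93 in TGFb+IL-6 (3.70 ± 0.21, adjusted p = 9.02e-06). Il1r1, the signalling receptor gene, was low, at 0.95 to 1.4 against 0.08 and 0.28 TPM, and did not pass (adjusted p = 0.102). Il21r was at 375, 288 and 258 against 79.7 and 85.5 TPM (1.86 ± 0.19, adjusted p = 0.000277). Ifngr1, a subunit of the interferon gamma receptor, was at 7.15, 7.36 and 13.0 against 63.1 and 75.6 TPM (-2.83 ± 0.29, adjusted p = 0.000266). Il2rb fell by 1.45 ± 0.21 (adjusted p = 0.00172, and 0.0692 without TGFb+IL-6 replicate 1), and Il12rb1 by 0.95 ± 0.28 (adjusted p = 0.0496), a call that held only without IL-1b+IL-6+IL-23 replicate 1 (adjusted p = 0.00899, and 0.117 to 0.261 without the others).

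Downstream of the IL-1 receptor, NF-kappaB induces its own inhibitors. Of 20 tested genes of the IL-1 receptor family and its signalling 6 were higher (30%, against 9.03% of all genes) and 0 lower. They were Il1r2, Nfkbia, Nfkbiz, Irak2, Rel and Tnfaip3. The list median was 0.21, against 0.25 for all genes, so the list as a whole did not rise above them. Median-ratio scaling moved it to -0.04, against 0.0068 for all genes, with 5 higher (25% against 5.02%) and 1 lower (5% against 6.93%). Nfkbia, the gene of the inhibitor IkBa, was at 2362, 1803 and 2144 against 588 and 748 TPM (1.65 ± 0.16, adjusted p = 0.000223). Nfkbiz was at 6.68 to 10.02 against 2.05 and 1.59 TPM (1.77 ± 0.31, adjusted p = 0.00536), and Tnfaip3, the gene of the inhibitor A20, at 20.4, 9.11 and 24.4 against 5.74 and 3.74 (1.64 ± 0.40, adjusted p = 0.0243). Il1r2 and Nfkbia were called whichever library was left out, while the calls of Nfkbiz, Irak2, Rel and Tnfaip3 were lost without TGFb+IL-6 replicate 1 or 2 (adjusted p = 0.0653 to 0.367).

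TNF family genes include costimulatory pairs between T cells and their partners. Of 22 tested 8 were higher (36.4%, against 9.03% of all genes) and 3 lower (13.6% against 4.73%). Tnfsf8 (CD30 ligand) was at 67.4, 48.2 and 68.9 against 2.78 and 2.47 TPM (4.09 ± 0.25, adjusted p = 1.13e-05), and its receptor gene Tnfrsf8 at 12.2, 16.01 and 11.3 against 1.09 and 0 (3.28 ± 0.38, adjusted p = 0.000519). Tnfsf4 (OX40 ligand) was at 40.3, 24.3 and 48.2 against 2.66 and 0.59 TPM (3.95 ± 0.41, adjusted p = 0.000274), while its receptor gene Tnfrsf4 was at 612 to 836 against 698 and 751 and did not pass (adjusted p = 0.998). Fas, the death receptor gene, was at 123, 67.9 and 103 against 17.8 and 18.5 TPM (2.33 ± 0.26, adjusted p = 0.00042), and Cd70, Tnfrsf25, Tnfrsf26 and Tnfsf11 were higher too, by 1.24 to 2.97. These last 4 were lost without TGFb+IL-6 replicate 2 (adjusted p = 0.0809 to 0.303), which left 4 higher genes. Tnfrsf9 (4-1BB), with Lta and Ltb, was lower, at 35.7, 31.1 and 49.4 against 99.3 and 152 TPM (-1.66 ± 0.26, adjusted p = 0.00263, and 0.103 without TGFb+IL-6 replicate 2).

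Of the 29 lists with tested members, type I interferon-stimulated genes had the highest median. Interferons induce these antiviral genes through transcription factors that bind the interferon-stimulated response element. Of 20 tested genes 14 were higher in IL-1b+IL-6+IL-23 and 0 lower, with a median of 2.33, or 2.00 without the 4 listed at 0 in a whole group. The median over the 20 genes was 12.3 to 15.6 TPM in the 3 libraries of IL-1b+IL-6+IL-23 and 1.71 and 2.37 in TGFb+IL-6. Isg15, a ubiquitin-like modifier gene, was at 134, 117 and 177 against 5.99 and 8.21 TPM (4.14 ± 0.24, adjusted p = 9.02e-06). Ifit1, which binds viral RNA, was at 17.0, 16.3 and 20.3 against 0.46 and 0 TPM (3.96 ± 0.31, adjusted p = 4.71e-05). Irf7, the factor that amplifies interferon responses, was at 64.7, 47.0 and 59.2 against 6.95 and 6.35 TPM (2.91 ± 0.23, adjusted p = 5.33e-05). Ifit3, Rsad2, Ifi44 and Rtp4 were at 1.54 to 7.71 TPM and listed at 0 in both TGFb+IL-6 libraries (adjusted p = 0.000654 to 0.00985), and Ifit3 and Rsad2 lost the call without either of these (adjusted p = 0.0648 to 0.136). Stat2, Ddx58, Mx2, Xaf1 and Ifi27l2a were among those that did not pass. Leaving out TGFb+IL-6 replicate 1 or 2 left 11 of the 14 calls each time, and median-ratio scaling left the count at 14.

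Interferon-inducible GTPases, which attack the vacuoles of intracellular parasites, went along: 10 of 14 tested were higher and 0 lower, with a median of 1.49, or 1.46 without Gbp10, listed at 0 in TGFb+IL-6. Gbp4 was at 16.8, 9.7 and 9.77 against 1.06 and 1.08 TPM (2.62 ± 0.33, adjusted p = 0.000885), and Igtp at 152, 136 and 182 against 47.1 and 66.8 (1.46 ± 0.21, adjusted p = 0.00183, and 0.0652 without TGFb+IL-6 replicate 1). Ifi47 did not pass, at 32.3, 32.6 and 51.3 against 43.5 and 46.8 TPM (adjusted p = 0.549). Each TGFb+IL-6 library left out in turn left 3 of the 10 calls. Gbp and Tgtp genes are close copies, and how reads were split among them is uncertain.

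Genes of MHC class I presentation, which display peptides to CD8 T cells, were higher in 12 of 19 cases and lower in 0, with a median of 1.15. H2-K1, a classical class I heavy chain gene, was at 9875, 5599 and 5027 TPM against 2557 and 3012 (1.23 ± 0.25, adjusted p = 0.0103). H2-K1 was highest in IL-1b+IL-6+IL-23 replicate 1, and H2-D1 followed the same order at 12964, 7099 and 6214 against 3393 and 4095 (adjusted p = 0.0183). H2-T22 was at 175, 141 and 134 against 29.5 and 47.9 TPM (1.96 ± 0.24, adjusted p = 0.000663), and Tap1, a subunit of the peptide transporter, at 223, 135 and 158 against 52.4 and 64.0 (1.52 ± 0.23, adjusted p = 0.00232). B2m, the light chain gene, rose by 0.72 ± 0.18 (adjusted p = 0.0251), while the immunoproteasome genes Psmb8 and Psmb9 did not pass (adjusted p = 0.506 and 0.239). With median-ratio scaling 7 of the 19 were higher, with H2-K1, H2-D1 and B2m among those lost, and without TGFb+IL-6 replicate 1 or 2 the count was 1, with adjusted p = 0.0622 to 0.256 for H2-K1, H2-D1, Tap1 and B2m. B2m was also lost without IL-1b+IL-6+IL-23 replicate 2 or 3 (adjusted p = 0.0789 and 0.0674). The class I genes are near copies of each other.

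Proliferation genes moved the opposite way. Of 29 tested 21 were lower in IL-1b+IL-6+IL-23 and 1 higher, with a median of -1.56 against 0.25 for all genes. Their median level was 9.89 to 12.9 TPM in IL-1b+IL-6+IL-23 and 36.9 and 44.1 in TGFb+IL-6. Mcm6, a subunit of the replicative helicase, was at 44.5, 38.0 and 36.5 against 168 and 142 TPM (-1.94 ± 0.19, adjusted p = 0.000232). Ccnb2, a cyclin of entry into mitosis, was at 5.36, 6 and 5.67 against 29.6 and 33.6 TPM (-2.29 ± 0.25, adjusted p = 0.000371). Aurkb, a mitotic kinase gene, was at 5.87 to 7.92 against 36.4 and 36.9 TPM (-2.27 ± 0.25, adjusted p = 0.000393), and Top2a at 4.81 to 5.68 against 44.7 and 25.8 (-2.47 ± 0.30, adjusted p = 0.00064). Ccnd2, cyclin D2 of the G1 phase, was the member that rose, at 388, 371 and 339 against 146 and 152 TPM (1.29 ± 0.15, adjusted p = 0.000592). Mki67, the gene of the Ki-67 antigen, was at 0.6 to 0.81 against 5.73 and 1.86 TPM and did not pass (adjusted p = 0.052). Median-ratio scaling gave 22 lower genes, and leaving out TGFb+IL-6 replicate 1 or 2 gave 9 and 8. When all 18 libraries of the series with over 5000 genes shared one estimate of the spread, 2 of the 21 lower proliferation calls, 0 of 10 GTPase, 0 of 12 MHC class I and 11 of 14 type I interferon-stimulated calls were left. Without the 2 of those 18 libraries in which ribosomal protein genes took 58.9% and 59.0% of the TPM, the counts were 22, 11, 13 and 15.

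**Figure D3:**
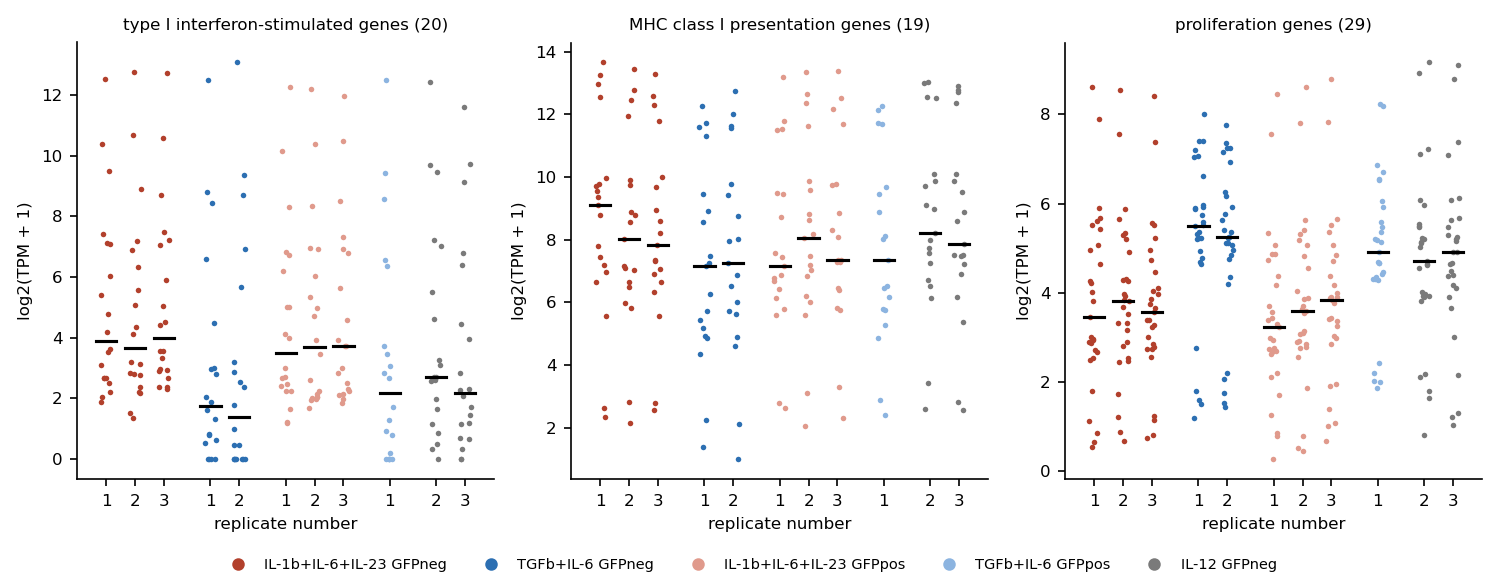
Level of each tested member, log2(TPM + 1), in 11 libraries for type I interferon-stimulated, MHC class I presentation and proliferation genes; points are genes, black bars the median of a library, and the x axis gives replicate numbers. In GFPneg cells the medians of the first 2 lists are higher, and that of proliferation genes lower, in IL-1b+IL-6+IL-23 than in TGFb+IL-6.

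Promoters of a few called members of these groups are shown as examples. They are the RefSeq windows of 250 bases before to 50 after the start site in GRCm38.p6, found for 6826 of the tested genes. The interferon-stimulated response element, searched as GAAA, any 2 bases and GAAA again on either strand, was in 3.28% of these 6826 windows, in 8.29% of 615 of genes called higher and in 4.07% of 295 of genes called lower. It was in 9 of 14 windows of type I interferon-stimulated genes (64.3%) and in 8 of 9 of the GTPases (88.9%), which are related copies. The capitals mark this motif in Isg15 (chr4:156200769-156201068, minus strand), Ifit1 (chr19:34640639-34640938, plus strand) and Igtp (chr11:58199306-58199605, plus strand).
Isg15: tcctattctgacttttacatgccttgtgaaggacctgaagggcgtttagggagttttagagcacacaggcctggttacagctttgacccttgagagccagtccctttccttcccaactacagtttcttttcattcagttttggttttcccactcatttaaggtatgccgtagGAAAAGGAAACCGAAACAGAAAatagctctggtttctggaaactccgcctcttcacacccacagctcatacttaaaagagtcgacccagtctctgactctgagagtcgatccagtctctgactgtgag
Ifit1: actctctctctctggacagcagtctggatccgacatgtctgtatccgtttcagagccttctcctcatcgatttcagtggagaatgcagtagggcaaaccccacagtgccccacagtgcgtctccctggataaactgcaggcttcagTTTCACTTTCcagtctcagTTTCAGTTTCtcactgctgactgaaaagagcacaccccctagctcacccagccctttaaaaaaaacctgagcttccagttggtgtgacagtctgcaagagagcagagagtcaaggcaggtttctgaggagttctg
Igtp: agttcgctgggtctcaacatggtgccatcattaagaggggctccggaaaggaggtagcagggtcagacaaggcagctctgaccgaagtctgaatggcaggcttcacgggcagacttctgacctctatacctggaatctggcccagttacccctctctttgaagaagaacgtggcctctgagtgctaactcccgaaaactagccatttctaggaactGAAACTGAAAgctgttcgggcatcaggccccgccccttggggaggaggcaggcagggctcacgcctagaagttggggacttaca

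In the proliferation list, the E2F motif TTTNNCGC was in 6 of 24 windows (25%) against 9.42% of all, and the cell cycle homology region TTTGAA in 9 of 24 (37.5%) against 12% of all. The same letters were frequent in other lists: the E2F motif was in 4 of 16 windows of MHC class I genes (25%) and TTTGAA in 4 of 9 of the GTPases (44.4%), lists whose called members were higher. Among windows of genes called lower the shares were 13.9% and 18%, and among those called higher 6.99% and 14.1%. The NF-kappaB motif, GGGA, any 2 bases and TTCC, was in 1.58% of all windows and in 1 of 16 of the IL-1 receptor family and signalling list, that of Nfkbia. A match of letters is a description and not a measured binding site. Capitals mark the E2F motif in Mcm6 (chr1:128359656-128359955, minus strand), the cell cycle homology region in Ccnb2 (chr9:70421505-70421804, minus strand) and the NF-kappaB motif in Nfkbia (chr12:55492598-55492897, minus strand).
Mcm6: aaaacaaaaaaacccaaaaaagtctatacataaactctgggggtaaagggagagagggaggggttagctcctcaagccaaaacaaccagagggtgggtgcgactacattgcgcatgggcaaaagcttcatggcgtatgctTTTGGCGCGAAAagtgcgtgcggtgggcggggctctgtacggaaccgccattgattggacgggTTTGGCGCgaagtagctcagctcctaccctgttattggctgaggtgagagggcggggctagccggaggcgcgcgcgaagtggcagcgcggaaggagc
Ccnb2: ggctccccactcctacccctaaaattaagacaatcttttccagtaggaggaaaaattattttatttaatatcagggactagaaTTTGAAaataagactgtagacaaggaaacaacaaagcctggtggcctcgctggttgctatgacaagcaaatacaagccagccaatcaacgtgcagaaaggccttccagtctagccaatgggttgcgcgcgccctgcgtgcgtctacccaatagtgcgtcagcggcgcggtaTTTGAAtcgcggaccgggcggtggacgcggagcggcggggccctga
Nfkbia: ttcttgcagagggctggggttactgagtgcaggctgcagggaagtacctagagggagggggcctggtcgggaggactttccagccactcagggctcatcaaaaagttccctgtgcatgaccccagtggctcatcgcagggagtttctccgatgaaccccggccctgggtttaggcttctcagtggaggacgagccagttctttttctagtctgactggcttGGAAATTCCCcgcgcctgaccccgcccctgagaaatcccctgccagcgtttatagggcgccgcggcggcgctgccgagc

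Genes known from TGF-beta signalling were called in both directions. Of 17 tested, Id2 and Id3 were higher (11.8%, against 9.03% of all genes). Tgfbi, Nt5e, Id1 and Skil were lower (23.5% against 4.73%), and the median was -0.10. With median-ratio scaling the higher share was 5.88%, against 5.02% of all genes. Without TGFb+IL-6 replicate 1 or 2, Tgfbi and Nt5e stayed lower and Id1 was lost (adjusted p = 0.106 and 0.172). Id3, an inhibitor of E proteins that is kept in resting T cells, was at 236, 190.5 and 131 against 13.8 and 12.7 TPM (3.67 ± 0.25, adjusted p = 2.27e-05). Tgfbi, named for its induction by TGF-b, was at 0, 0 and 0.25 against 9.87 and 7.58 TPM (-3.16 ± 0.32, adjusted p = 0.000266). Nt5e (CD73), an enzyme that makes adenosine, was at 1.89, 1.25 and 2.9 against 27.2 and 16.8 TPM (-2.93 ± 0.35, adjusted p = 0.000646). Skil, a feedback inhibitor of SMADs, fell by 1.02 ± 0.28 (adjusted p = 0.0416) and lost the call in all 5 fits with a library left out (adjusted p = 0.0518 to 0.303). Itgae, encoding the CD103 integrin chain, was listed at 0 in all 5 libraries and in every other library of the series. Whether it was quantified at all is not known.

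Among markers of other T cell states, regulatory T cell genes were lower in 5 of 12 cases (41.7%, against 4.73% of all genes) and higher in 0. Their list median was -0.90, or -0.86 without Il10, listed at 0 in IL-1b+IL-6+IL-23. The counts of higher genes in the lists below stand beside 9.03% of all genes. Ctla4, an inhibitory receptor gene, was at 50.2, 39.6 and 70.5 against 205 and 181 TPM (-1.87 ± 0.24, adjusted p = 0.00095), and Capg at 607, 467 and 560.5 against 1398 and 1475 (-1.40 ± 0.15, adjusted p = 0.000359). Without TGFb+IL-6 replicate 1 or 2, 1 of the 5 calls remained, and Ctla4 had adjusted p = 0.0634 and 0.0543. Naive and stem-like T cell genes were higher in 4 of 11 (among them Id3, Tcf7 and Lef1) and lower in 0, with Lef1 lost without TGFb+IL-6 replicate 1 or 2 (adjusted p = 0.103 and 0.248). Tcf7, encoding TCF-1, was at 89.2, 57.2 and 74.4 against 20.2 and 11.4 (2.18 ± 0.28, adjusted p = 0.000965, and 0.0513 without TGFb+IL-6 replicate 2). Th1 genes rose in 3 of 9 (33.3%, Ccl5, Cxcr3 and Stat4) and fell in 1 (11.1%, Il12rb1). Th2 genes rose in 1 of 6 (16.7%, Gata3) and fell in 2 (33.3%, Ecm1 and Ccr8). The medians of the 2 lists were 0.98 and -0.48. Without TGFb+IL-6 replicate 1, Ecm1 and Ccr8 lost their calls, with log2 changes of -1.36 and -1.28. Cxcr3 was at 28.9, 15.6 and 15.3 against 1.06 and 3.26 TPM (2.76 ± 0.40, adjusted p = 0.00171, and 0.0642 without TGFb+IL-6 replicate 1). Follicular helper genes rose in 3 of 7 (Btla, Cd200 and Icos), and Il21 fell.

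Inhibitory receptors and their regulators were divided, with 4 of 13 higher (Lag3, Cd200, Btla and Tigit) and 5 lower (Pdpn, Procr, Nt5e, Maf and Ctla4), of which Tigit and Ctla4 were lost without TGFb+IL-6 replicate 1 or 2 (adjusted p = 0.0543 to 0.0634). Cd200 was at 307, 234 and 383 against 67.8 and 57.4 TPM (2.26 ± 0.22, adjusted p = 0.000194). Pdpn, encoding podoplanin, was at 0, 0.52 and 0.96 against 188 and 158 TPM (-6.91 ± 0.33, adjusted p = 2.79e-06), and Procr, encoding the protein C receptor, at 2.45, 0.65 and 1.87 against 44.8 and 59.5 (-4.37 ± 0.36, adjusted p = 5.85e-05). Cytotoxic granule and killer receptor genes were higher in 6 of 10 and lower in 3 (Ctsw, Klrd1 and Klrc1). Once TGFb+IL-6 replicate 1 or 2 was left out, 3 stayed higher and Ctsw alone stayed lower. Serpinb9, the inhibitor of granzyme B, was at 9.94 to 12.4 against 0.24 and 0.65 TPM (3.11 ± 0.31, adjusted p = 0.000238), while Ctsw, a cathepsin gene of killer cells, was at 1.29, 0 and 0.98 against 59.3 and 41.4 (-4.93 ± 0.40, adjusted p = 5.76e-05). Homing genes were higher in 3 of 16 (18.8%, against 9.03% of all genes; among them Cxcr3 and Gpr183) and lower in 3 (18.8% against 4.73%; Ccr8, Selplg and Gpr15), and Gpr183, Ccr8 and Selplg lost their calls without TGFb+IL-6 replicate 1 or 2 (adjusted p = 0.0506 to 0.155). Gpr15, a receptor for homing to the large intestine, was at 0, 0 and 1.11 against 18.5 and 15.3 TPM (-3.80 ± 0.40, adjusted p = 0.000313).

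**Figure D4:**
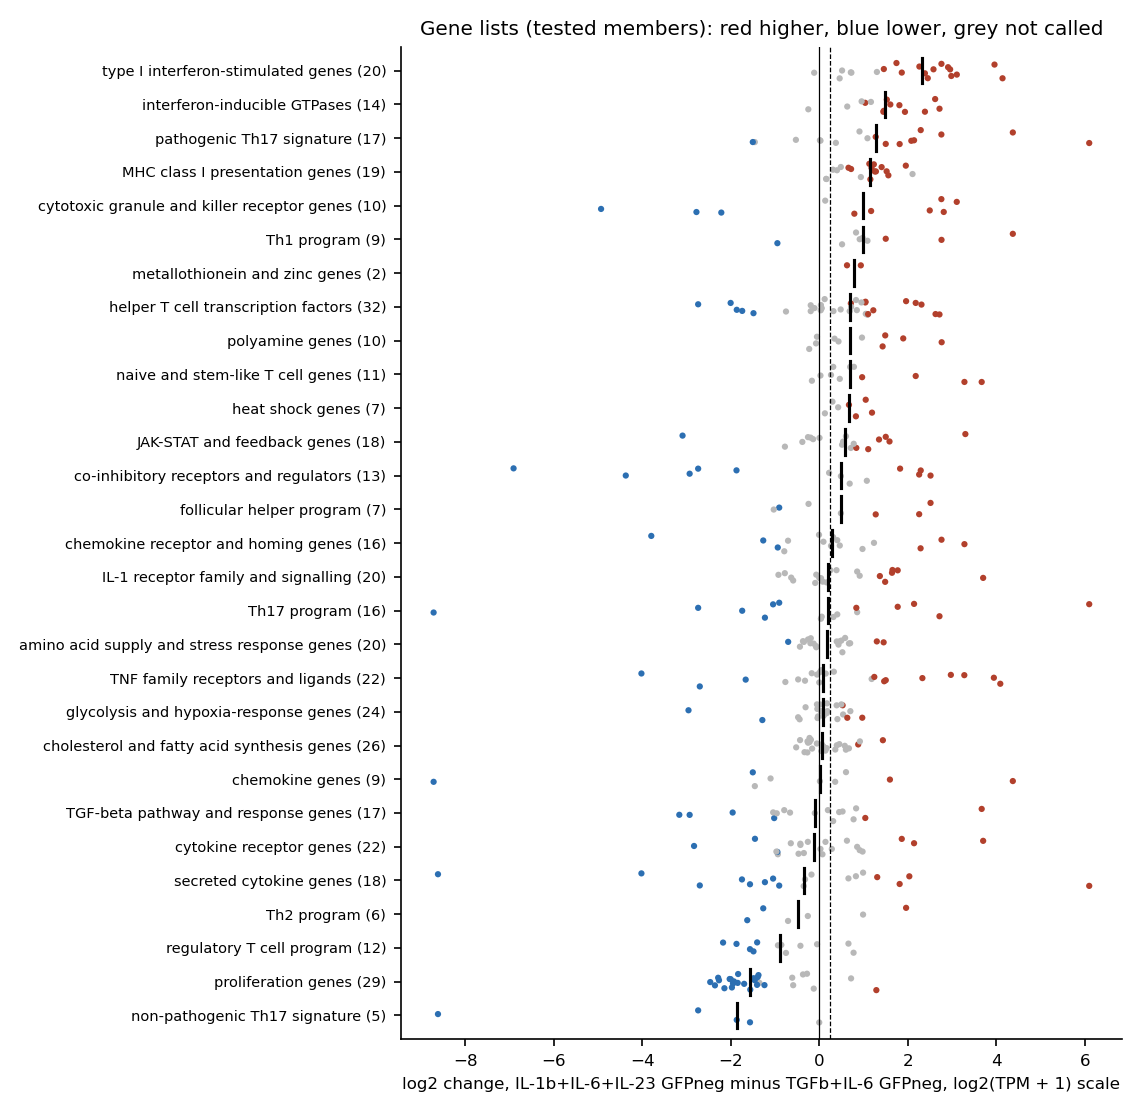
Log2 change of every tested member of 29 gene lists (IL-1b+IL-6+IL-23 GFPneg minus TGFb+IL-6 GFPneg, log2(TPM + 1) scale); red points were called higher, blue lower and grey not called. Black bars are list medians, the dashed line is the median of all genes at 0.25, and numbers in parentheses are tested members; type I interferon-stimulated genes stand at the top and the non-pathogenic Th17 signature at the bottom, next to proliferation genes.

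Many of the largest differences lay outside these lists. Lum, encoding the matrix proteoglycan lumican (chr10:97565128-97572703, plus strand), rose most, at 435, 457 and 551 TPM against 1.2 and 2.45 (7.44 ± 0.24, adjusted p = 1.92e-07). Penk, the proenkephalin gene, was at 965, 528 and 682 against 11.4 and 9.63 TPM (5.94 ± 0.25, adjusted p = 1.56e-06). Serpine2, a protease inhibitor gene, was at 388, 253 and 381 against 7.69 and 7.42 (5.29 ± 0.23, adjusted p = 1.56e-06), and S100a6, a calcium-binding protein gene, at 962, 630.2 and 1541 against 28.5 and 35.1 (4.91 ± 0.31, adjusted p = 1.28e-05). In each of the 4 the values of the cultures were far apart. Pdzk1ip1, the growth factor gene Pdgfa, Ermn and the class I gene H2-Q10 rose by 3.97 to 4.87, H2-Q10 with a wide spread of 117 to 383 against 8.24 and 18 TPM and with adjusted p = 0.0506 without TGFb+IL-6 replicate 1. Hist1h2af, a histone gene, and Dhrs3, a retinaldehyde reductase gene, were at 10.2 to 23.8 and 10.03 to 19.9 TPM and listed at 0 in both TGFb+IL-6 libraries (adjusted p = 0.000138 and 9.46e-05).

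On the other side stood Ctla2a and Ctla2b, neighbouring genes of cathepsin inhibitors. Ctla2a was at 33.6, 26.5 and 26.1 TPM in IL-1b+IL-6+IL-23 and at 1534 and 1657 in TGFb+IL-6 (-5.75 ± 0.18, adjusted p = 1.92e-07), and Ctla2b at 0, 1.32 and 0 against 273 and 335 (-7.84 ± 0.39, adjusted p = 2.87e-06). They are near copies, so their separate values are uncertain. The neighbours Tmem176a and Tmem176b, membrane protein genes known from Th17 cells, were at 2.96 to 5.25 against 114 and 90.1 TPM and at 0 to 1.93 against 84.1 and 83.9 (-4.39 ± 0.28 and -5.58 ± 0.42). Aqp3, a water and glycerol channel gene, was at 0.51, 0 and 0.01 against 144 and 125 TPM (-6.87 ± 0.31, adjusted p = 2.12e-06). Ltb4r1, a leukotriene B4 receptor gene, fell by 4.41 ± 0.31 and Ass1, an enzyme gene of arginine synthesis, by 3.79 ± 0.21 (adjusted p = 2.42e-05 and 8.6e-06). The row Mir6240 was at 0, 0 and 43.3 against 135 and 188 TPM, with the largest SE of the named genes (1.33, adjusted p = 0.0238), and lost its call without TGFb+IL-6 replicate 1 or 2 or IL-1b+IL-6+IL-23 replicate 2 (adjusted p = 0.203, 0.295 and 0.0741).

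**Figure D5:**
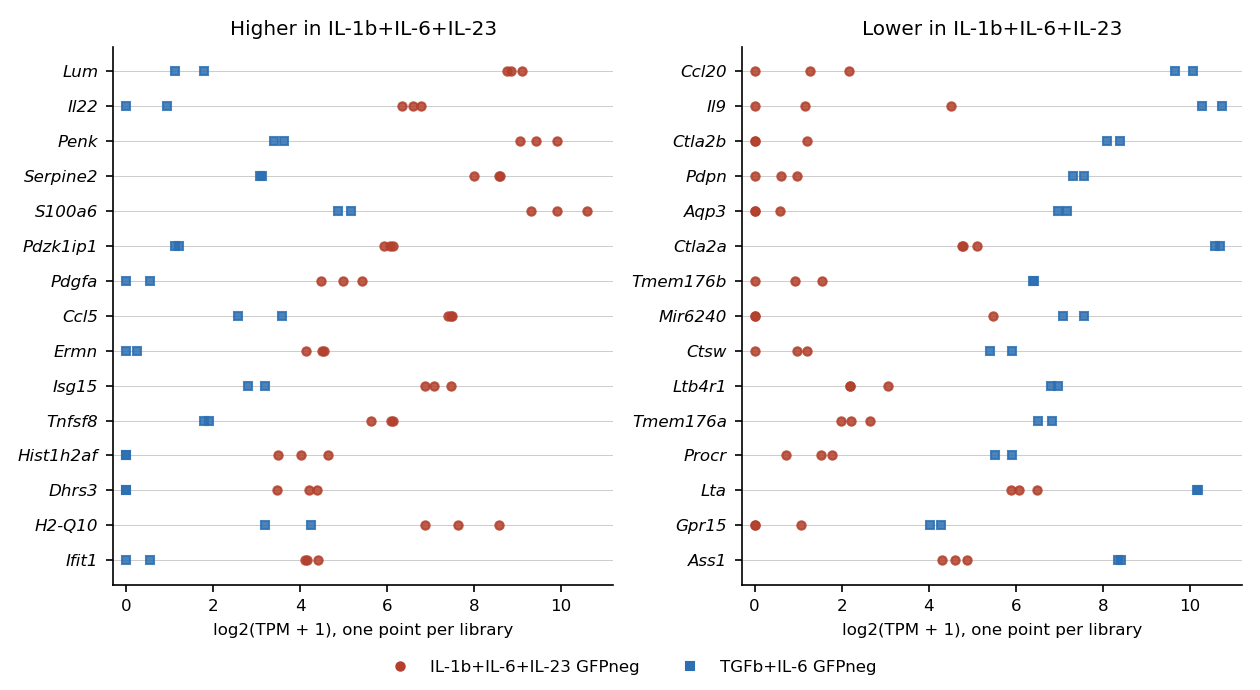
Log2(TPM + 1) in each library for the 15 largest rises (left) and 15 largest falls (right) among named genes; red circles are the 3 IL-1b+IL-6+IL-23 libraries and blue squares the 2 TGFb+IL-6 libraries, all GFPneg. The values of the cultures are apart in all 30 genes because the naming rule required it. Il9 and Mir6240 each have 1 red point away from the other 2.

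The GFPpos cells of the same cultures, which share no library with the comparison but may share its cultures, allowed the directions to be set side by side. Among the 18 libraries with over 5000 genes TGFb+IL-6 GFPpos has 2, and replicate 2 had 58.9% of its TPM in ribosomal protein genes, so replicate 1 was used. In the 3 IL-1b+IL-6+IL-23 GFPpos libraries against that library, 699 of the 781 genes called higher (89.5%) were higher and 388 of the 409 called lower (94.9%) were lower, while of all tested genes 43.1% were higher and 56.7% lower. With replicate 2 in its place the shares were 97.1% and 39.9%, against 85.5% and 14.3% of all genes. Il22 was at 251 to 299 TPM in the 3 GFPpos libraries and at 8.23 in TGFb+IL-6 GFPpos replicate 1, Ccl20 at 0 to 1.07 and 926, and Lum at 637 to 1157 and 6.01. Il17a did not keep its order, at 615, 697 and 1199 against 876 TPM, nor Il17f, at 6082 to 9681 against 9497. The same was true of H2-K1, at 2917, 5300 and 4580 against 3287 TPM. Against replicate 1 the list median was 0.18 for MHC class I genes, which had 1.15 in GFPneg cells. It was 1.38 for type I interferon-stimulated genes (2.33 in GFPneg cells), -1.43 for proliferation genes (-1.56) and -0.09 for all genes (0.25). Inhibitory receptor and follicular helper lists had -0.80 and -0.43, both 0.49 in GFPneg cells.

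GFPneg cells cultured with IL-12 gave a further reference, with neither TGF-b nor IL-1b, IL-6 and IL-23 (replicates 2 and 3; replicate 1 had 59.0% of its TPM in ribosomal protein genes). Ifng was at 1121 and 1474 TPM there. The comparison shares both Th17 groups with the calls, so it is given as a description. The IL-12 level lay nearer to IL-1b+IL-6+IL-23 than to TGFb+IL-6 in 79.3% of the genes called higher, in 64.8% of those called lower and in 64.8% of all tested genes. Proliferation genes lay nearer in 7 of 29, type I interferon-stimulated genes in 9 of 20, MHC class I genes in 18 of 19 and GTPases in 13 of 14. GTPases had a median of 17.0 and 30.6 TPM with IL-12, above the 8.64 to 9.1 of IL-1b+IL-6+IL-23. Proliferation genes had a median of 25.4 and 29.1 TPM with IL-12, between the other cultures. Ccl20, Pdpn, Aqp3 and Tmem176b were also low with IL-12, at 0 to 3.68 TPM. Penk and Serpine2 were higher with IL-12 than in either Th17 culture, at 4250 and 4629 and at 992 and 1051 TPM. Lum, Il22, Batf and Il1r2 were below their IL-1b+IL-6+IL-23 levels with IL-12, at 3.09 and 5.42, 1.64 and 9.04, 142 and 151, and 1.27 and 3.19 TPM.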

How the data were processed

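The values are TPM as deposited by the authors in a table of 23415 rows and 21 libraries. The tools named per the submitters' processing notes are RSEM 1.2.31, Bowtie2 2.2.9 and Trimmomatic 0.32, with the build GRCm38, and their order, settings, annotation and use of strand are not given in the sources used here. Rows were matched by symbol to GENCODE M21 (22434) or through RefSeq synonyms (438), and 543 were unmatched. Libraries with under 5000 genes above 0 were left out.

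Genes with at least 1 TPM in at least 2 of the 5 libraries were tested with limma 3.58.1 (R 4.3.3, trend on) on log2(TPM + 1), with Benjamini-Hochberg adjustment over 8645 genes. Fold changes are on that scale and understate those of low genes. Errors are SE with n = 3 and 2. A gene listed at 0 may be a failed estimate, so no fold is given against a group listed at 0 throughout, and list medians are also given without such genes. The difference given for Hist1h2be between GFPpos and GFPneg cells is an exception. Tables were made with Python 3.11.15, pandas 2.3.3 and numpy 2.4.6. The fit was tested on simulated data. The smallest two-sided p of an exact permutation test is 0.1.

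Named genes were the 15 largest rises and falls whose log2 change was 1 or more in size, whose groups did not overlap and which had a mean of at least 5 TPM in the higher group (predicted, Rik, pseudogene and receptor-segment rows left out), up to 5 members of each list by adjusted p, and a fixed set of Th17 genes, 158 in all, and a few genes that the rule names are not reported here. The text names most of these and 43 further genes chosen after their values were seen. The comparison, its members and the 30 gene lists were chosen with earlier results of these data known. Replicate numbers 1 and 2 are shared between cultures, but the labels give no pairing, and the numbers were not taken as pairs. The deviations of same-numbered libraries from their group means correlated at 0.05 and 0.03. With 2 TGFb+IL-6 libraries these deviations mirror each other, so the values cannot decide whether the numbers are pairs. Alternatives were other pseudocounts, filters, scalings, samples and variance models, a replicate block, and each library left out in turn.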

Additional observations from a re-analysis of the deposited data

Results flagged for a closer look

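The effect of culture was also compared between GFPneg and GFPpos cells by an interaction term in limma over 16 libraries, in which TGFb+IL-6 GFPpos had 1 library (replicate 1), so that its lone sample was assumed to vary like the others. Of 8645 genes, 8 passed an adjusted p of 0.05, and 852 had an unadjusted p under 0.05. The differences below are the log2 change in GFPpos cells minus that in GFPneg cells. With TGFb+IL-6 GFPpos replicate 2 added, a fit chosen after seeing the data, 1 gene of 8645 passed, Hist1h2be, and 637 had an unadjusted p under 0.05. In that library ribosomal protein genes took 58.9% of the TPM.

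The histone gene Hist1h2be differed by 3.83, and by 3.83 ± 0.53 with replicate 2 (limma adjusted p = 0.0154). It was at 0 to 0.14 against 2.67 and 5.42 TPM in GFPneg cells. In GFPpos cells it was at 0.94 to 3.27 TPM against 0 in both TGFb+IL-6 GFPpos libraries. The difference thus rests on a group listed at 0, which may be a failed estimate, and on low values. Il1r2 differed by 2.91 ± 0.45 (adjusted p = 0.0124), being at 159 to 207 TPM in GFPpos cells against 0.85 and 0 in TGFb+IL-6 GFPpos replicates 1 and 2. Penk differed by -3.02 ± 0.47 (adjusted p = 0.0124), with 231 to 394 against 41.9 and 42.9 TPM in GFPpos cells. With replicate 2 the differences of Il1r2 and Penk were 3.35 ± 0.56 and -3.04 ± 0.51, both with adjusted p = 0.0549.

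The other 5 differences rested on replicate 1. Hspa1a, a heat shock gene, differed by -4.63 ± 0.50 (adjusted p = 0.000589), at 1.5 to 2.44 TPM in the 3 GFPpos libraries of IL-1b+IL-6+IL-23 against 53.6 in replicate 1 and 5.16 in replicate 2 of TGFb+IL-6, and the values below are in the same order. Cd9, a tetraspanin gene, differed by -2.41 ± 0.34 (adjusted p = 0.00895), at 31.7 to 39.6 against 33.9 and 7.17 TPM. Nrn1 differed by -2.95 ± 0.43 (adjusted p = 0.00942), at 6.44 to 11.3 against 31.6 and 2.89 TPM. Crabp2 differed by -2.12 ± 0.33 (adjusted p = 0.0124), at up to 32.6 against 164 and 12.9 TPM. Tnfrsf18, the gene of the costimulatory receptor GITR, differed by -1.45 ± 0.25 (adjusted p = 0.0339), at 185 to 252 against 587 and 125 TPM. Against replicate 2 alone, Cd9, Nrn1, Crabp2 and Tnfrsf18 were higher in each of the 3 libraries of IL-1b+IL-6+IL-23. With replicate 2 in the fit the differences were -3.06 ± 0.87 for Hspa1a, -1.37 ± 0.67 for Cd9, -1.42 ± 0.86 for Nrn1, -0.34 ± 0.92 for Crabp2 and -0.33 ± 0.63 for Tnfrsf18 (adjusted p = 0.5996 to 0.891).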

How the results depend on the processing

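The 1190 calls (781 higher, 409 lower in IL-1b+IL-6+IL-23) became 123 (52 higher, 71 lower) when all 18 libraries with over 5000 genes shared one estimate of the spread, or 1566 without the 2 of them with over 50% of TPM in ribosomal protein genes, and 32 (27 higher, 5 lower) with the left-out TGFb+IL-6 GFPneg replicate 3. With each of the 5 libraries left out in turn there were 230 to 1162 calls, 142 to 746 higher and 86 to 416 lower, the fewest without a TGFb+IL-6 library. The higher calls numbered 513 without the filter on low values, 434 with median-ratio scaling and 519 with quantile normalization. With the replicate block there were 1058 calls (658 higher, 400 lower), although the pairing is not given by the labels and only 2 numbers are shared. It ended the call of 12 of the 160 called genes among those chosen for naming, and the shared spread of 18 libraries that of 115. The other counts of all calls moved by under 1.5 times. Of those 160 genes 73 were called in all 5 fits with a library left out, 73 were not without TGFb+IL-6 replicate 1 and 78 not without replicate 2. Median-ratio scaling ended 22 calls (Cd5, Id2, Lef1, Pkm, Pgam1, Hk2, Hmgcs1, Hspd1, Hspe1, Mt1, Mt2, Iltifb, Stat3, Junb, Bhlhe40, Ikzf1, Tyk2, Rel, Tnfsf11, H2-K1, H2-D1 and B2m), and quantile normalization 14. Direction was kept in all but 48 of the recomputed changes of named genes, and the cause was not tested.

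With TGFb+IL-6 GFPneg replicate 3 included, 31 changes reversed: Cd2 1.42, Gzmb -0.98, Il1rn 1.02, Il12rb1 0.75, Ccr8 0.16, Ccr4 0.45, Capg 2.09, Ctla4 0.66, Il21 1.09, Sh2d1a 0.91, Il2rb 1.04, Ccl4 0.31, Mcm6 0.49, Rrm2 0.76, Fdps 2.35, Shmt2 1.24, Slc3a2 -0.40, Hspa8 -0.0466, Il17a 1.41, Il17f 2.96, Skil 0.50, TDTOMATO 0.98, ICRE 0.0458, Irf4 0.14, Bhlhe40 -0.41, Tnfrsf4 3.17, Ifi27l2a 4.14, Ifi47 1.59, Psmb8 -0.52, Ccnd2 -0.0428 and Selplg 1.64. Other reversals were of genes that had not passed: Hspa8 -0.0104, Ccl3 -0.26 and Psmb8 -0.14 with median-ratio scaling, Ccl3 -0.24 and Ifi27l2a 0.0242 with quantile normalization, Il1rn 0.0099 with array weights, and Ccl3 -0.43 with the replicate block. Over the fits with a library left out, Il1rn ranged from -0.0415 to 0.0367, Ccl3 from -0.43 to 0.38, ICRE from -0.9998 to 0.28, Tnfrsf4 from -0.10 to 0.12 and Ifi27l2a from -0.40 to 0.17. With 3 and 2 libraries and no depths, a gene that missed the threshold is not shown to be equal.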

Other observations

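Counts for metabolic and stress gene groups stand beside the 9.03% of all genes called higher and the 4.73% called lower. Polyamine genes, whose small cationic products are needed for growth, were higher in 4 of 10 tested and lower in 0. Smox, encoding spermine oxidase, was at 273, 243 and 253 TPM in IL-1b+IL-6+IL-23 and at 37.4 and 36.2 in TGFb+IL-6 (2.77 ± 0.17, limma adjusted p = 1.01e-05), and Sat1, encoding the acetylase that starts polyamine breakdown, at 905, 690.4 and 902 against 291 and 321 (1.43 ± 0.17, adjusted p = 0.000523). The synthases Srm and Sms were higher too, at 14.9 to 43.9 against 6.3 and 6.65 TPM and at 33.5 to 40.7 against 13.2 and 11.4, and both had adjusted p = 0.0622 to 0.172 without TGFb+IL-6 replicate 2. Odc1 and the antizyme genes Oaz1 and Oaz2 did not pass.

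Of 24 tested genes of glycolysis and the hypoxia response 3 were higher (Hk2, Pgam1 and Pkm) and 2 lower (Egln3 and Mxi1), and with median-ratio scaling 0 and 2. Egln3, an oxygen-sensing hydroxylase gene, was at 9.68, 7.53 and 10.1 against 75.0 and 78.9 TPM (-2.96 ± 0.23, adjusted p = 4.71e-05), while Hk2 lost its call in every fit with a library left out (adjusted p = 0.0628 to 0.248). Of 26 cholesterol and fatty acid synthesis genes 2 were higher, Idi1 by 1.44 ± 0.22 and Hmgcs1 by 0.88 ± 0.25. Of 20 amino acid supply and stress genes Atf4 and Ddit3, factors of the integrated stress response, were higher, by 1.30 ± 0.17 and 1.45 ± 0.24, and Shmt2 fell by 0.70 ± 0.19. Idi1, Hmgcs1, Atf4, Ddit3 and Shmt2 all lost their calls without TGFb+IL-6 replicate 2 (adjusted p = 0.0548 to 0.323).

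Heat shock genes were higher in 4 of 7 (Hsph1, Hsp90aa1, Hspd1 and Hspe1), with 2 under median-ratio scaling and 0 without TGFb+IL-6 replicate 2. Metallothionein genes Mt1 and Mt2 were higher by 0.63 ± 0.16 and 0.94 ± 0.24, and neither passed with median-ratio scaling or without either TGFb+IL-6 library. The list of Ahr, the gene of the aryl hydrocarbon receptor, and its targets was under the level tested in 6 of 6 cases. This receptor senses dietary and microbial ligands. Cytosolic ribosomal protein genes were lower in 12 of 82 and higher in 2, with a median of -0.28, a list chosen after the library shares were seen.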
